A study of Mus musculus with 8 samples.

Results

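The genes described here are 40 genes of the endoplasmic reticulum, the compartment in which secreted and membrane proteins are folded. They comprise 13 folding chaperones and co-chaperones, 10 enzymes of disulfide bond formation, 10 genes of ER-associated degradation (ERAD), 5 stress sensors or the transcription factors they activate, and 2 translocon subunits. They were listed by gene name, with earlier results of these data known, among the 30139 gene names on a mouse expression array, and each was represented by its brightest probe. All 40 were on the array, with 54 probes, and all 40 entered the test because their probe was well above background on all 8 arrays.

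The study asked how 2 microRNAs change the transcriptome of mSCC-20, a mouse cutaneous squamous cell carcinoma line of the FVB/N strain. The cells had received a control microRNA (NC), miR-193b-3p or miR-365a-3p by transfection, and their total RNA, Cy3-labelled, was read on 8 one-colour Agilent arrays. The labels give an amount in µg that splits the arrays into a 0.2 set, with 2 NC and 2 miR-193b arrays, and a 0.6 set, with 2 NC and 2 miR-365a arrays. Each microRNA was set against NC within its set, and no NC array serves both comparisons. The 0.2 set lies on slides 1 (NC and miR-193b replicate 1), 2 (NC replicate 2) and 3 (miR-193b replicate 2) and the whole 0.6 set on slide 4, so a difference between the microRNAs cannot be told apart from one between the sets. The labels give no time after transfection and do not tell whether the replicates of this single line came from separate cultures, so a p-value here reflects array-to-array spread, which may be technical. With 2 arrays a group, the number of arrays limits the precision.

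Proteins enter the endoplasmic reticulum through the Sec61 translocon and are folded by chaperones such as BiP (Hspa5) and GRP94 (Hsp90b1) and by lectins such as calnexin, while protein disulfide isomerases form their disulfide bonds. Proteins that fail to fold are taken out by ERAD, in which SEL1L and the ubiquitin ligase HRD1 (Syvn1) pass them to the proteasome. When unfolded proteins build up, the sensors IRE1 (Ern1), PERK (Eif2ak3) and ATF6 raise chaperone and ERAD genes, in part through XBP1 and the cleaved form of ATF6, which act on the ER stress response elements ERSE and ERSE-II.

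The mature microRNAs, from RefSeq on GRCm38.p6, are shown with the seed (bases 2 to 8) in capitals because the seed is the part that pairs with target messengers. The miR-193b-3p gene lies at chr16:13449570-13449591, and miR-365-3p is encoded both at chr16:13453895-13453916 and at chr11:79726467-79726488, all on the plus strand. The seeds differ.
mmu-miR-193b-3p: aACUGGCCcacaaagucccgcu
mmu-miR-365-3p: uAAUGCCCcuaaaaauccuuau

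A RefSeq promoter window of 250 bases before to 50 after the annotated start was at hand for 34 of the 40 genes. ERSE, which is CCAAT and CCACG with 9 bases between them, was found on either strand in 10 of the 34, among them Hspa5, Hsp90b1, Calr, Canx, Creld2 and Pdia6. Of 27025 genes with such a window, 37 held it, or 0.137%. ERSE-II, which is ATTGG and CCACG with 1 base between them, was in the windows of Dnajb11 and Herpud1 and in those of 12 genes in all, and none of the 34 held both. The XBP1 element spelled TGACGTGG was found only in the window of Txndc5 among the 34, and in 0.714% of all genes with a window. These matches describe the letters and do not show binding. The 250 bases before the start of 5 of these genes are printed below, with the CCAAT and CCACG letters of each ERSE in capitals (ATTGG and CGTGG where it runs on the other strand). Hspa5 (chr2:34771840-34772089, plus strand) and Hsp90b1 (chr10:86705445-86705694, minus strand) are shown as the best known chaperones of this group, Canx (chr11:50325674-50325923, minus strand) because it rose, and Creld2 (chr15:88819396-88819645, plus strand) and Pdia6 (chr12:17266339-17266588, plus strand) because they fell.
Hspa5: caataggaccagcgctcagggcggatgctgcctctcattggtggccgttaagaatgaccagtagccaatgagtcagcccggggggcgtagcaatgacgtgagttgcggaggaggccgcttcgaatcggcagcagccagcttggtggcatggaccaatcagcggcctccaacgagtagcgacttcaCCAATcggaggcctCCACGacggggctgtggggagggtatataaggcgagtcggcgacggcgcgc
Hsp90b1: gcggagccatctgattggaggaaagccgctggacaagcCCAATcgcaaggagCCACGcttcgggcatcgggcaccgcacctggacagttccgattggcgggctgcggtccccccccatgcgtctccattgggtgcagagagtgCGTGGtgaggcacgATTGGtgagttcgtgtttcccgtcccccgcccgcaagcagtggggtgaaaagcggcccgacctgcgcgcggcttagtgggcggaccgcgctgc
Canx: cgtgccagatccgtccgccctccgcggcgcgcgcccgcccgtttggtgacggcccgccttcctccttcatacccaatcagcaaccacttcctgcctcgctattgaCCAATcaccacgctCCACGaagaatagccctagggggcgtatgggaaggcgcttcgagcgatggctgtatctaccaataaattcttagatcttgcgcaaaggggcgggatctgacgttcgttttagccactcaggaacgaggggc
Creld2: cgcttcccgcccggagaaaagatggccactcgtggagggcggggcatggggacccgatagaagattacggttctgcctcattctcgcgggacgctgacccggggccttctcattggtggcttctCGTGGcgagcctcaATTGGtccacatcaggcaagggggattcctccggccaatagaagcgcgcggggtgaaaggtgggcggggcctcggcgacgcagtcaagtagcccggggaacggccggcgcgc
Pdia6: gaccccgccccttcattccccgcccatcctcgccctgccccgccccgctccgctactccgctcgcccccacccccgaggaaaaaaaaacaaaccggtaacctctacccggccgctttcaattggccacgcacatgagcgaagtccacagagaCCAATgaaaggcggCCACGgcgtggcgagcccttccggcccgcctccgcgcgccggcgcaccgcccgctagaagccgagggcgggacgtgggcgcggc

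Each array had 43020 gene spots, and the share well above background was 51.4% to 54.6% on the 0.2 set arrays and 59.0% to 62.1% on those of the 0.6 set. The keratinocyte markers Krt5, Krt14 and Trp63, the simple epithelial keratins Krt8 and Krt18 and the general epithelial markers Cdh1 and Epcam were well above background on all 8 arrays. Col3a1, Dcn and Lum of fibroblasts, Lyz2 of leukocytes, Cdh5 and Tek of endothelium, Dct of melanocytes, and Tnfrsf17, Jchain, Mzb1 and Irf4 of plasma cells, which are rich in these chaperones, were on none. Other listed markers of these cell types were above background on some or all arrays, Cd68 and Kdr on all 8. The detection filter of the test passed 3 of 7 fibroblast, 3 of 6 leukocyte, 2 of 4 endothelial, 4 of 5 melanocyte and 2 of 6 plasma cell markers. Of the listed markers none was called after miR-193b, while after miR-365a Krt8 was called higher (0.61 ± 0.14, adjusted p = 0.038) and Mitf lower (-0.68 ± 0.14, adjusted p = 0.027). The fibroblast marker Pdgfrb was well above background on only the 2 miR-365a arrays and entered the test through them, so its call as higher is not counted here. Their part in the results below was not tested. In bulk RNA, fewer cells of a type and less RNA per cell cannot be told apart. Levels below are log2 signals after centring each array on its 75th percentile, so 0 is the level of that percentile, and they are compared between arrays, not between genes.

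After miR-365a, 10 of the 40 genes changed and 30 were not called, where a call is an adjusted p under 0.05 in limma's test over 17856 genes. Erp44, Atf6, Creld2, Pdia6, Sdf2l1 and Edem3 fell, and Sel1l, Creld1, Os9 and Canx rose. The share called over all genes tested was 15.8%, with 7.77% higher and 7.99% lower, against 4 higher and 6 lower here. The 40 differences had a median of -0.08 on the log2 scale (all genes: 0.02) and ranged from -2.33 for Erp44 to 1.20 for Sel1l. Leaving out arrays 1 at a time moved that median between -0.17 and 0.04, so its sign was not stable. Both miR-365a arrays lay above both NC arrays for 10 genes and below them for 15, against 33.7% and 27.9% of all genes.

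After miR-193b, 1 of the 40 genes was called: Sel1l rose. No gene was called lower by limma, while 12 of the 40 had an unadjusted p under 0.05 in either direction, against 21.3% of all genes. With the deposited log2 values 1 of the 40 was called higher and 2 lower, and with normexp background correction or trended variance 3 higher and 1 lower. All genes called in these settings numbered 856, 980 and 1042, in that order, against 519 in the main fit. Those 519 were 2.91% of all genes tested, with 1.75% higher and 1.15% lower. The median of the 40 differences was 0.03 (all genes: 0.05), and they ranged from -1.37 for Hyou1 to 1.15 for Sel1l. That median moved between -0.01 and 0.09 when arrays were left out 1 at a time. Both miR-193b arrays lay above both NC arrays for 13 genes and below them for 9, against 29.9% and 22.2% of all genes.

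**Figure D1:**
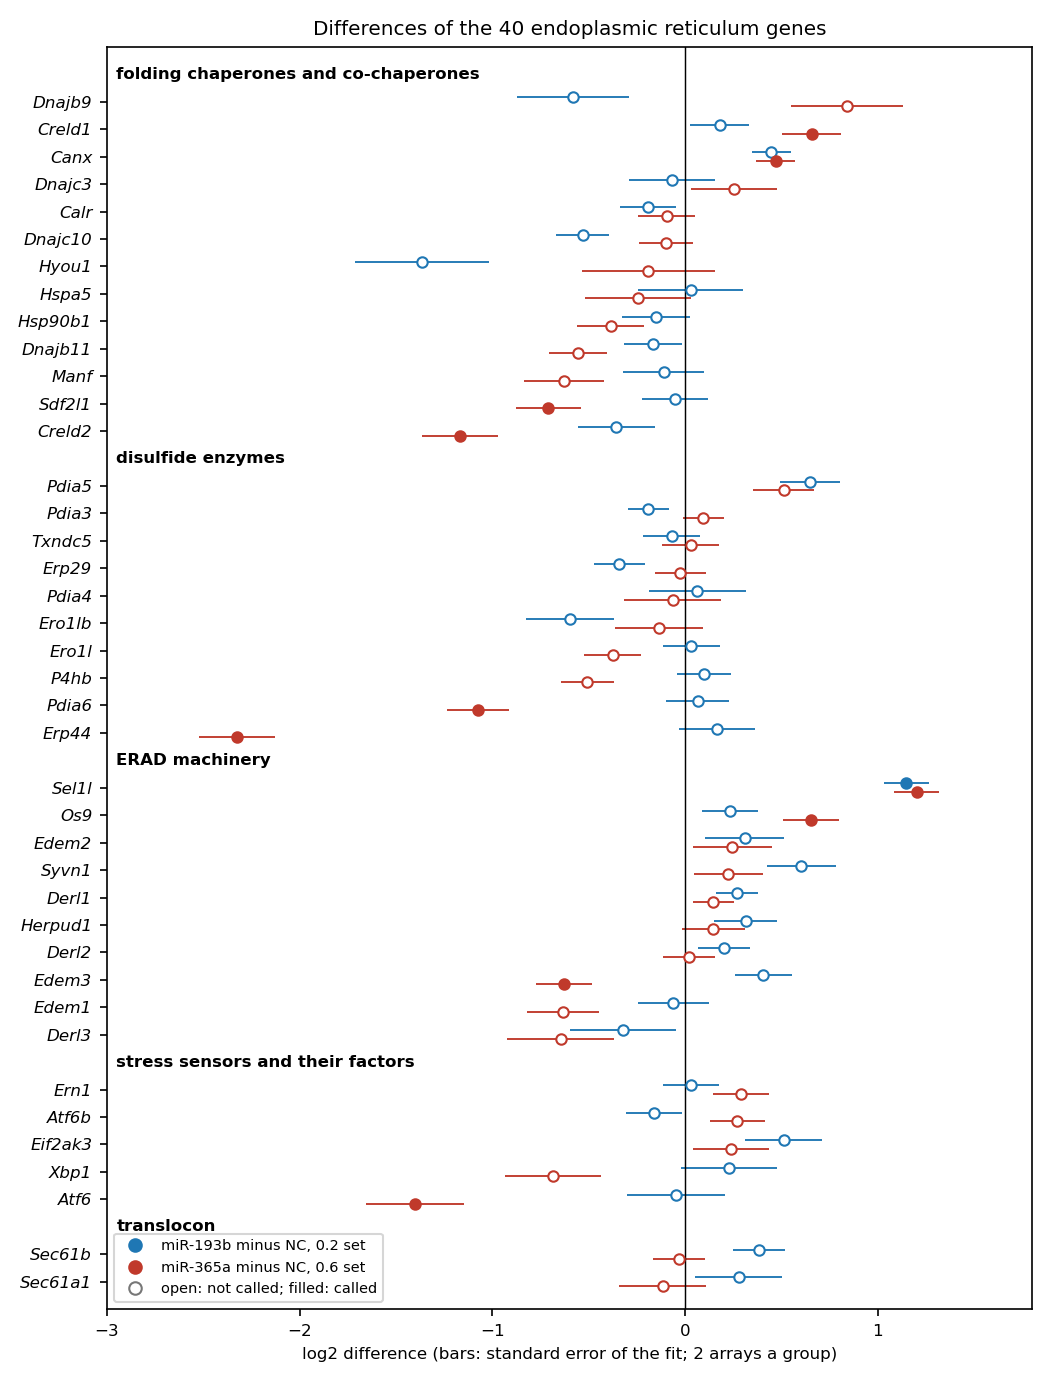
Log2 difference of each of the 40 genes, by role, for miR-193b minus NC in the 0.2 set (blue) and miR-365a minus NC in the 0.6 set (red), with bars for the standard error of the limma fit on 2 arrays a group and filled points for adjusted p under 0.05. Erp44 stands farthest left at -2.33 after miR-365a, and Sel1l is to the right of 0 after both microRNAs.

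The NC arrays of the 0.6 set differed from each other for this group of genes. NC replicate 4 lay above NC replicate 3 for 36 of the 40, with a median difference of 0.285, while over all genes tested the share was 53.2% and the median 0.02. For NC replicate 2 against replicate 1 the count was 21 of 40 (all genes: 58.9%), and for miR-365a replicate 2 against replicate 1 it was 33 of 40 (all genes: 55.0%). Without NC replicate 4 the genes called after miR-365a were 2 higher and 2 lower, and without NC replicate 3 they were 1 higher and 5 lower. Without miR-365a replicate 1 or 2 they were 1 higher and 1 lower each time, and without either miR-193b array 2 higher and 4 lower. Over all genes tested, calls after miR-365a numbered 2814 with all arrays, 1375 without NC replicate 4 and 731 without NC replicate 3. They numbered 640 and 588 without miR-365a replicates 1 and 2, and 2155 without either miR-193b array. The loss of calls was thus not particular to these 40 genes. Erp44 and Sel1l were called after miR-365a under all 18 alternative settings, the omission of each array included. With no filter on dim probes, which raised the genes tested to 30139, the calls of Canx, Sdf2l1, Creld1, Creld2, Edem3, Os9 and Atf6 after miR-365a and of Sel1l after miR-193b were lost (adjusted p of 0.0502 to 0.11). With only the arrays of the same amount, or slide as a block, those of Canx, Sdf2l1, Edem3 and Os9 were lost (adjusted p of 0.056 to 0.067). For miR-365a both settings are the same test, because the whole 0.6 set lies on slide 4. With normexp or the deposited values the genes called after miR-365a were 4 higher and 9 lower, and with trended variance 5 higher and 10 lower. All genes called in these settings numbered 3311, 3378 and 3529, in that order.

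Among the 13 folding chaperones, 2 rose (Canx and Creld1), 2 fell (Sdf2l1 and Creld2) and 9 were not called after miR-365a (all genes: 7.77% higher, 7.99% lower). None was called after miR-193b, where 3 had an unadjusted p under 0.05 (all genes: 21.3%). There, 10 of the 13 differences were below 0 (all genes: 44.3%). Both miR-193b arrays lay below both NC arrays for 5 chaperones and above them for 1, against 22.2% and 29.9% of all genes. The medians were -0.19 after miR-365a and -0.15 after miR-193b. The differences of the 9 uncalled chaperones after miR-365a ran from -0.63 for Manf, a secreted factor held in the endoplasmic reticulum, to 0.84 for Dnajb9, a J-domain co-chaperone of BiP.

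Hspa5 encodes BiP, the main Hsp70 chaperone of the compartment and the usual readout of its stress. Its normalised log2 levels were 5.51 and 5.86 on NC replicates 1 and 2 and 5.72 and 5.71 on the miR-193b arrays. In the 0.6 set they were 5.37 and 6.09 on NC replicates 3 and 4 and 5.27 and 5.70 on the miR-365a arrays. The groups overlapped in both sets, and the NC arrays of the 0.6 set lay farther apart than the arrays of any other group. The differences were 0.03 ± 0.27 (SE) for miR-193b, with a 95% interval of -0.63 to 0.69, and -0.24 ± 0.27 for miR-365a, with an interval of -0.91 to 0.42. The miR-193b value was -0.15 after quantile normalization and -0.20 in the deposited log2 values, and the miR-365a value was 0.11 without NC replicate 4.

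Hsp90b1 encodes GRP94, the Hsp90 chaperone of the compartment. Its levels were 5.16 and 5.56 on NC and 5.18 and 5.24 on miR-193b arrays, then 5.52 and 5.79 on NC and 5.19 and 5.35 on miR-365a arrays. The miR-365a arrays lay below both NC arrays of their set, but the difference of -0.39 ± 0.18 was not called (adjusted p = 0.20), and that of -0.15 ± 0.18 after miR-193b was not called either (adjusted p = 0.64). Calr, the soluble lectin calreticulin, had differences of -0.19 and -0.09, and neither was called.

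Canx encodes calnexin, the membrane lectin that holds glycoproteins during folding, and its probe lies at chr11:50108047-50108106 on mm9. Its levels were close within every group: 4.35 and 4.32 on NC and 4.78 and 4.79 on miR-193b arrays in the 0.2 set, and 4.48 and 4.50 on NC and 4.94 and 4.98 on miR-365a arrays in the 0.6 set. Both microRNA groups lay above their NC arrays. Canx rose 1.38-fold after miR-365a (log2 difference 0.47 ± 0.10, adjusted p = 0.029), and the miR-193b difference of 0.45 ± 0.10 missed the threshold (adjusted p = 0.075). The miR-365a call was lost without any one of the miR-365a arrays, NC replicate 3 or 4, or either miR-193b array (differences of 0.45 to 0.49, adjusted p of 0.059 to 0.15).

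Creld2, an ER-resident protein with disulfide isomerase activity that is induced by ER stress, fell 2.25-fold after miR-365a (probe at chr15:88656997-88657056). Its levels were 4.29 and 4.77 on NC and 3.32 and 3.40 on miR-365a arrays, with no overlap, a fall by 1.17 ± 0.20 (adjusted p = 0.015). In the 0.2 set they were 4.09 and 4.42 on NC and 3.80 and 4.00 on miR-193b arrays, again with no overlap but a difference of -0.36 ± 0.20 that was not called (adjusted p = 0.35). The miR-365a call was lost without either miR-365a array or NC replicate 4 (differences of -1.21 to -0.93, adjusted p of 0.055 to 0.088).

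Creld1, its membrane-anchored relative, moved the other way after miR-365a (probe at chr6:113442957-113443016). Levels were -1.66 and -1.52 on NC and -0.86 and -1.01 on miR-365a arrays, a rise of 0.66 ± 0.15 or 1.58-fold (adjusted p = 0.037). They were -2.43 and -2.53 on NC and -2.48 and -2.13 on miR-193b arrays, which overlapped (difference 0.18 ± 0.15, adjusted p = 0.52). Creld1 was also the only one of the 40 genes called between the NC arrays of the sets, 0.89 higher in the 0.6 set (adjusted p = 0.017), in a comparison that called 15.5% of all genes, 11.5% higher and 3.99% lower. That call was lost without any one NC array, and the miR-365a call was lost without any one NC or miR-365a array (differences of 0.58 to 0.73, adjusted p of 0.0504 to 0.17).

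Sdf2l1, which works with J-domain co-chaperones of BiP, fell 1.64-fold after miR-365a (probe at chr16:17130426-17130485). Its levels were 1.78 and 2.07 on NC and 1.08 and 1.35 on miR-365a arrays, a fall by 0.71 ± 0.17 (adjusted p = 0.039). In the 0.2 set the NC levels of 1.66 and 1.86 and the miR-193b levels of 1.62 and 1.79 overlapped (difference -0.05 ± 0.17). The call was lost without any one of the miR-365a arrays, NC replicate 3 or 4, or either miR-193b array (differences of -0.86 to -0.56, adjusted p of 0.061 to 0.18).

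Of the chaperones not called, Hyou1, a large Hsp70-like chaperone also known as GRP170, had the widest miR-193b difference of the 40, -1.37 ± 0.35 (adjusted p = 0.093). Its levels were -1.73 and -1.94 on NC and -3.18 and -3.23 on miR-193b arrays, and the values on slide 1 alone (-1.44) and on slides 2 and 3 (-1.29) were alike. In the 0.6 set its groups overlapped (-0.19 ± 0.35). Dnajb9 had -0.58 ± 0.29 after miR-193b and 0.84 ± 0.29 after miR-365a, neither called (adjusted p = 0.31 and 0.11), and the difference between these of 1.42 was not called (adjusted p = 0.12). A second, dimmer Dnajb9 probe gave 1.60 ± 1.11 and 0.12 ± 1.11, so the probes disagreed in sign after miR-193b. Dnajc10, a co-chaperone that reduces disulfides, had -0.53 ± 0.14 after miR-193b (adjusted p = 0.10), but 0.26 ± 0.24 at its second probe.

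**Figure D2:**
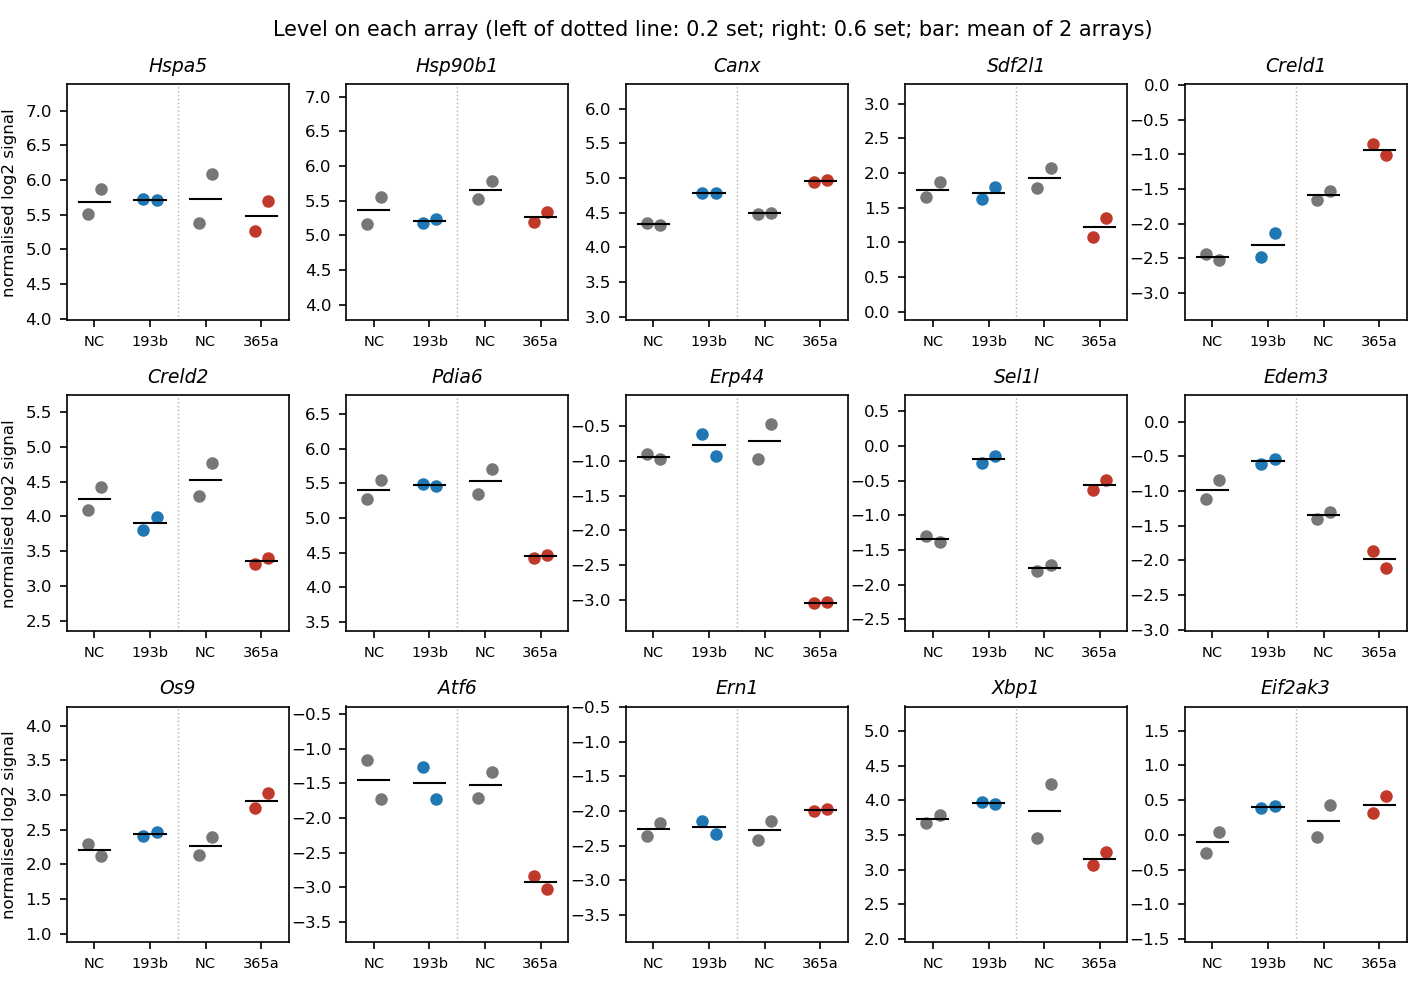
Normalised log2 signal of 15 genes on each of the 8 arrays, with the 0.2 set left of the dotted line and the 0.6 set right of it, NC in grey, miR-193b in blue and miR-365a in red; the bar is the mean of 2 arrays, and every panel spans the same log2 range. Erp44 and Atf6 sit lowest on both miR-365a arrays, Sel1l is higher than NC with both microRNAs, and the NC arrays of Hspa5 and Xbp1 in the 0.6 set lie well apart.

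Among the 10 disulfide enzymes, 2 fell after miR-365a (Erp44 and Pdia6), none rose and 8 were not called (all genes: 7.77% higher, 7.99% lower). None was called after miR-193b, where 3 of the 10 had an unadjusted p under 0.05 (all genes: 21.3%). The medians were -0.10 after miR-365a and 0.05 after miR-193b, the latter turning to -0.04 after quantile normalization and -0.08 in the deposited values.

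Erp44 encodes a thioredoxin-like protein that cycles between the Golgi and the endoplasmic reticulum and brings back proteins that lack a retention signal, ERO1 oxidases among them. Its probe lies at chr4:48206274-48206333 on mm9. The levels were -0.98 and -0.46 on NC replicates 3 and 4 and -3.05 and -3.04 on the miR-365a arrays. In the 0.2 set they were -0.91 and -0.97 on NC and -0.62 and -0.93 on miR-193b arrays. The miR-365a arrays were thus the lowest of the 8 by over 2 log2 units, while the 6 other arrays overlapped.

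Erp44 fell 5.02-fold after miR-365a, by 2.33 ± 0.20 on the log2 scale (95% interval -2.80 to -1.85, adjusted p = 0.0033). After miR-193b the difference was 0.17 ± 0.20 (adjusted p = 0.65). The miR-365a effect minus the miR-193b effect, -2.49 ± 0.28, was called (adjusted p = 0.015), and Erp44 was the only one of the 40 genes called in that contrast, in which 3.49% of all genes were called. The contrast's call was lost without either miR-365a array, miR-193b replicate 1 or NC replicate 4 (values of -2.50 to -2.24). It was also lost with no filter on dim probes (-2.49, adjusted p = 0.068) and with slide as a block (-2.62). In the block fit the miR-193b effect rests on NC replicate 1 and miR-193b replicate 1 alone. Leaving out arrays moved the miR-365a difference between -2.58 and -2.07, with the call kept.

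Pdia6, a protein disulfide isomerase that also tunes the sensors, fell 2.11-fold after miR-365a (brightest probe at chr12:17291070-17291129). Its levels were 5.35 and 5.70 on NC and 4.43 and 4.47 on miR-365a arrays, a fall by 1.08 ± 0.16 (adjusted p = 0.011), against 5.27 and 5.55 on NC and 5.49 and 5.46 on miR-193b arrays, which overlapped (0.07 ± 0.16). A second probe gave a fall by 1.27 ± 0.17 after miR-365a (adjusted p = 0.0085), and another, above background on 6 arrays, gave -0.60 ± 0.25, which was not called. The call was lost without either miR-365a array (adjusted p = 0.070 and 0.065 for differences of -1.05 and -1.10). The contrast between the microRNAs was -1.14 (adjusted p = 0.054).

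The other 8 disulfide enzymes ranged from -0.51 to 0.51 after miR-365a. P4hb, the founding protein disulfide isomerase, had -0.51 ± 0.14 (adjusted p = 0.056) with no overlap between its groups, and the oxidase Ero1l, now named Ero1a, had -0.38 ± 0.15 (adjusted p = 0.14). Its relative Ero1lb (Ero1b) had -0.60 ± 0.23 after miR-193b (adjusted p = 0.20) and -0.13 ± 0.23 after miR-365a. Pdia5 lay above NC on both arrays of each microRNA, by 0.65 ± 0.16 after miR-193b (adjusted p = 0.084) and 0.51 ± 0.16 after miR-365a (adjusted p = 0.077). Pdia3, Pdia4, Txndc5 and Erp29 had differences between -0.07 and 0.10 after miR-365a.

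Among the 10 ERAD genes, 2 rose (Sel1l and Os9), 1 fell (Edem3) and 7 were not called after miR-365a (all genes: 7.77% higher, 7.99% lower). After miR-193b 1 rose (Sel1l) and 9 were not called (all genes: 1.75% higher, 1.15% lower). After miR-193b, 8 of the 10 had both treated arrays above both NC arrays, against 29.9% of all genes, none had both below, and 4 had an unadjusted p under 0.05 (all genes: 21.3%). These counts use the brightest probes. Of the 8, Syvn1 and Derl2 each had a dimmer probe below 0 (-0.07 and -0.67), while further probes of Derl1 and Derl2 gave 0.22 and 0.12. The median was 0.29 after miR-193b, against 0.05 over all genes, and 8 of 10 differences were above 0 under each scaling of the arrays (medians of 0.22 to 0.29). After miR-365a the median was 0.15.

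Sel1l, the adaptor that holds the HRD1 ligase complex together, rose after both microRNAs (probe at chr12:93044963-93045022). Its levels were -1.29 and -1.39 on NC and -0.24 and -0.14 on miR-193b arrays, then -1.81 and -1.71 on NC and -0.63 and -0.49 on miR-365a arrays. The arrays of each group lay close together, and neither treated group came near its NC arrays. The rise was 2.22-fold after miR-193b (1.15 ± 0.12, adjusted p = 0.018) and 2.30-fold after miR-365a (1.20 ± 0.12, adjusted p = 0.0044). The difference between them was 0.05 ± 0.17 (adjusted p = 0.89). The miR-193b rise was 1.05 within slide 1 and 1.25 between slides 2 and 3. The miR-193b call was lost without any one of the miR-193b or miR-365a arrays (differences of 1.10 to 1.20). It was also lost in a fit of the 0.2 set alone (1.15, adjusted p = 0.13) and with slide as a block (1.05). The block fit takes the miR-193b difference from slide 1 alone, 1 array against 1, because slides 2 and 3 hold 1 array each.

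Os9, a lectin that hands misfolded glycoproteins to the SEL1L complex, rose 1.57-fold after miR-365a (probe at chr10:126532774-126532833). Its levels were 2.14 and 2.40 on NC and 2.81 and 3.02 on miR-365a arrays, a rise of 0.65 ± 0.15 (adjusted p = 0.033), and 2.29 and 2.13 on NC and 2.41 and 2.47 on miR-193b arrays (0.23 ± 0.15, adjusted p = 0.40). The groups did not overlap in either set. The miR-365a call was lost without any one of the miR-365a arrays, NC replicate 3 or 4, or either miR-193b array (differences of 0.52 to 0.78, adjusted p of 0.057 to 0.17).

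Edem3, which trims mannoses from misfolded glycoproteins so that such lectins can bind them, fell 1.55-fold after miR-365a (probe at chr1:153668950-153669009). Its levels were -1.40 and -1.31 on NC and -1.86 and -2.10 on miR-365a arrays, a fall by 0.63 ± 0.15 (adjusted p = 0.036). In the 0.2 set the miR-193b arrays lay above NC instead, at -0.61 and -0.54 against -1.12 and -0.85 (0.41 ± 0.15, adjusted p = 0.18). The contrast between the microRNAs was -1.04 ± 0.21 and just missed the threshold (adjusted p = 0.053). The miR-365a call was lost without any one of the miR-365a arrays, NC replicate 3 or 4, or either miR-193b array (differences of -0.75 to -0.51, adjusted p of 0.063 to 0.18). Its relatives were not called: Edem1 had -0.63 ± 0.19 after miR-365a (adjusted p = 0.068) and Edem2 had 0.25 ± 0.20.

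Syvn1, the HRD1 ligase itself, had 0.60 ± 0.18 after miR-193b (adjusted p = 0.13) and 0.22 ± 0.18 after miR-365a. Its dimmer probe, listed under the name D530017H19Rik, gave -0.07 ± 0.15 and -0.08 ± 0.15, opposite in sign to the brightest. Herpud1, an early target of the stress response that binds HRD1, had 0.32 ± 0.16 and 0.15 ± 0.16. The derlins, membrane proteins of the exit channel, had 0.27 ± 0.11 (Derl1), 0.20 ± 0.14 (Derl2) and -0.32 ± 0.28 (Derl3) after miR-193b, and 0.15 ± 0.11, 0.02 ± 0.14 and -0.64 ± 0.28 after miR-365a. None of these was called. A dimmer Derl2 probe gave -0.67 ± 0.12 after miR-193b (adjusted p = 0.053), opposite in sign to the brightest.

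Of the 5 sensors and factors, Atf6 fell after miR-365a and 4 were not called (all genes: 7.77% higher, 7.99% lower). None was called after miR-193b, where Eif2ak3 alone had an unadjusted p under 0.05 (all genes: 21.3%). The median was 0.24 after miR-365a and 0.03 after miR-193b, the latter turning to -0.003 after quantile normalization and -0.05 in the deposited values.

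Atf6 encodes the sensor that moves to the Golgi under stress, where it is cut to release a transcription factor (probe at chr1:172635311-172635370). Its levels were -1.71 and -1.34 on NC and -2.83 and -3.02 on miR-365a arrays, and -1.17 and -1.73 on NC and -1.27 and -1.72 on miR-193b arrays. The 0.6 set groups were apart, and the 0.2 set groups covered nearly the same range. Atf6 fell 2.64-fold after miR-365a, by 1.40 ± 0.25 (95% interval -2.02 to -0.79, adjusted p = 0.018), against -0.05 ± 0.25 after miR-193b (adjusted p = 0.94). The contrast between the microRNAs of -1.36 was not called (adjusted p = 0.10). The call was lost without any one of the miR-365a arrays or NC replicates 3 and 4 (differences of -1.59 to -1.22, adjusted p of 0.060 to 0.10). Atf6b, the paralog of Atf6, had 0.27 ± 0.14 after miR-365a and -0.16 ± 0.14 after miR-193b, neither called.

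Xbp1 encodes the factor whose messenger IRE1 splices. Its levels were 3.45 and 4.23 on NC and 3.07 and 3.25 on miR-365a arrays, a difference of -0.68 ± 0.25 that was not called (adjusted p = 0.12) with all arrays. It was called without NC replicate 3, at -1.07 (adjusted p = 0.037), and was -0.29 without NC replicate 4, so its size rests on which NC array is kept. In the 0.2 set the levels were 3.67 and 3.79 on NC and 3.98 and 3.94 on miR-193b arrays (0.23 ± 0.25, adjusted p = 0.62). Whether the spliced form changed was not tested, since the probe was not matched to an isoform.

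Ern1, the kinase and ribonuclease IRE1, had levels of -2.36 and -2.17 on NC, -2.14 and -2.32 on miR-193b, -2.41 and -2.14 on NC and -2.0 and -1.97 on miR-365a arrays. Its differences of 0.03 ± 0.15 after miR-193b and 0.29 ± 0.15 after miR-365a were not called (adjusted p = 0.92 and 0.24), and the former turned to -0.003 after quantile normalization. A dimmer Ern1 probe, above background on 5 arrays, gave a fall by 1.07 ± 0.15 after miR-193b (adjusted p = 0.034), so the Ern1 probes disagreed there.

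Eif2ak3, the kinase PERK, which slows translation under stress, had levels of -0.25 and 0.05 on NC and 0.39 and 0.42 on miR-193b arrays, with no overlap (0.51 ± 0.20, adjusted p = 0.21). On the 0.6 set they were -0.04 and 0.44 on NC and 0.32 and 0.55 on miR-365a arrays, which overlapped (0.24 ± 0.20, adjusted p = 0.49). The translocon subunits Sec61a1 and Sec61b were not called after either microRNA, with 0.28 ± 0.23 and 0.38 ± 0.13 after miR-193b and -0.12 ± 0.23 and -0.03 ± 0.13 after miR-365a.

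The 12 genes with ERSE or ERSE-II in the promoter window did not move as 1 group. After miR-365a, Canx rose, Creld2 and Pdia6 fell and 9 were not called, with a median of -0.19 and 8 of 12 differences below 0. The 22 genes with a window and neither element had 3 higher, 3 lower and a median of 0.02. Over all genes tested 7.77% were called higher and 7.99% lower, 47.1% of differences were below 0 and the median was 0.02. After miR-193b none of the 12 was called and their median was -0.11, against 0.13 for the 22, of which Sel1l was called. Over all genes 2.91% were called there, and the median was 0.05. All 12 were higher on NC replicate 4 than on NC replicate 3, by a median of 0.43, as were 19 of the 22, by a median of 0.21. Since that pair of arrays enters every miR-365a difference, its part in the medians was not tested. Atf6, Derl1, Erp29, Hyou1, Manf and Sec61a1 had no window in the table.

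**Figure D3:**
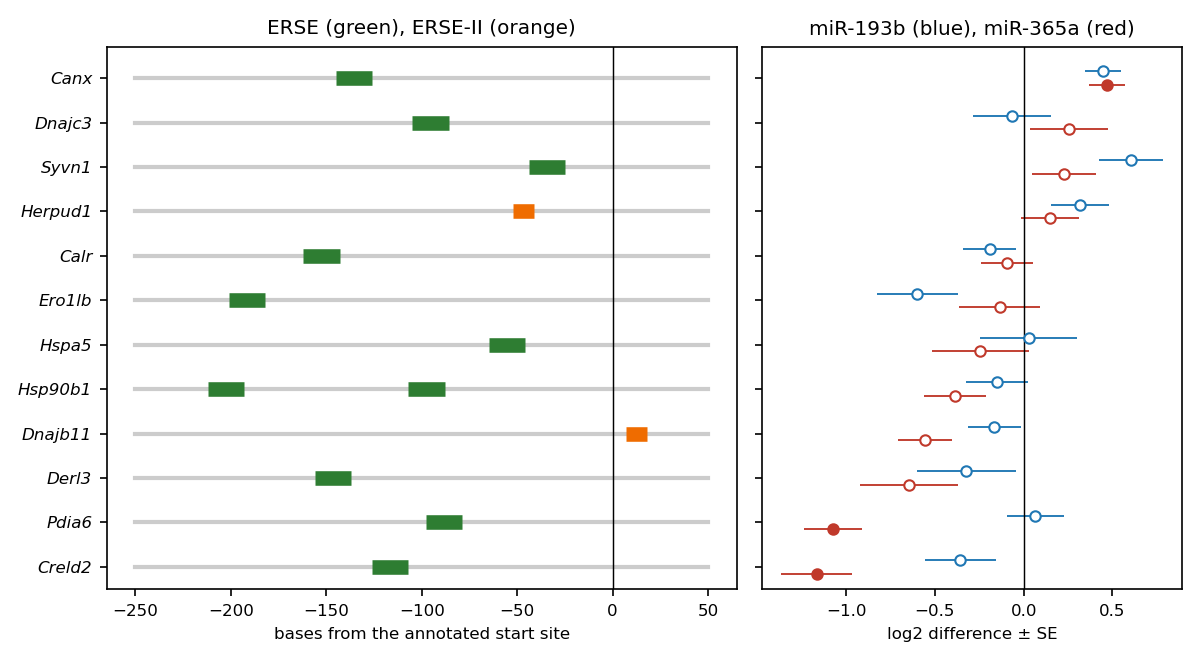
Left, the position of ERSE (green) and ERSE-II (orange) matches in the promoter windows of 12 genes, in bases from the annotated start; right, the log2 difference of the same genes with the standard error of the fit, blue for miR-193b and red for miR-365a, filled where called. Canx at the top rose after miR-365a and Pdia6 and Creld2 at the bottom fell, and each holds an ERSE within 145 bases of its start.

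Neighbouring endoplasmic reticulum genes were read from 6 further lists. Of 23 genes of the translocon, the signal recognition particle and signal peptidase, which bring new proteins into the compartment, 7 fell after miR-365a, none rose and 16 were not called, with a median of -0.14 (all genes: 0.02, with 7.99% called lower). Tram1, a translocon-associated membrane protein, had levels of 0.24 and 0.23 on NC and -1.77 and -2.03 on miR-365a arrays, and fell 4.39-fold (by 2.13 ± 0.14, adjusted p = 0.0024). Spcs3, a signal peptidase subunit, fell 2.62-fold (by 1.39 ± 0.12, adjusted p = 0.0033), and Srp68, a protein of the signal recognition particle, fell 2.23-fold (by 1.15 ± 0.13, adjusted p = 0.0057). These 3 calls held under all 18 alternatives. In the contrast between the microRNAs 5 of the 23 were called, all lower (all genes: 1.09% higher, 2.4% lower). Among them were these 3 (differences of -2.11, -1.54 and -1.25, adjusted p = 0.013, 0.014 and 0.028). Each of these 3 contrast calls was lost without either miR-365a array, NC replicate 3 or NC replicate 4, those of Spcs3 and Srp68 also without miR-193b replicate 1, and that of Srp68 also without miR-193b replicate 2 or NC replicate 1 (adjusted p up to 0.11).

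Of 13 genes of glycan quality control, 3 rose, 2 fell and 8 were not called after miR-365a (all genes: 7.77% higher, 7.99% lower). Lman1, the cargo lectin ERGIC-53, had levels of 2.64 and 2.79 on NC and 1.27 and 1.24 on miR-365a arrays and fell 2.75-fold (by 1.46 ± 0.17, adjusted p = 0.0059), a call held under all 18 alternatives. Uggt1, which marks misfolded glycoproteins for another round with calnexin, rose 1.84-fold after miR-193b (0.88 ± 0.11, adjusted p = 0.023) and 1.53-fold after miR-365a (0.61 ± 0.11, adjusted p = 0.016). Its levels were 2.89 and 3.00 on NC and 3.84 and 3.82 on miR-193b arrays, then 2.87 and 2.82 on NC and 3.49 and 3.43 on miR-365a arrays, with a clear gap each time. The miR-365a call of Uggt1 was lost without any one array of the 0.6 set (adjusted p up to 0.10), and the miR-193b call without any one array except NC replicate 2 (adjusted p up to 0.088). Ngly1, the cytosolic enzyme that strips glycans, which was well above background on 7 arrays, rose by 1.21 ± 0.20 after miR-365a (adjusted p = 0.013), lost without either miR-365a array or NC replicate 3 (adjusted p up to 0.076).

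Of 30 other folding and disulfide genes tested, 8 fell, none rose and 22 were not called after miR-365a (all genes: 7.77% higher, 7.99% lower). With normexp 1 was called higher and 9 lower, and with the deposited values 1 higher and 10 lower. Sil1, the nucleotide exchange factor of BiP, led the falls (by 1.34 ± 0.13, adjusted p = 0.0040, held under all 18 alternatives). Fkbp2, a prolyl isomerase, and Mesdc2, a chaperone of lipoprotein receptors, fell by 0.87 ± 0.12 and 0.75 ± 0.11 (adjusted p = 0.0084 and 0.010), each lost without either miR-365a array or NC replicate 3 (adjusted p up to 0.060 and 0.069). Of 25 other ERAD genes tested, 4 rose (Fam8a1, Tmub2, Rnf185 and Faf2), 3 fell and 18 were not called after miR-365a (all genes: 7.77% higher, 7.99% lower). The list's median was 0.20 (all genes: 0.02), with 16 differences above 0 and 9 below. Ubac2, a membrane partner of ERAD ligases, fell by 1.36 ± 0.12 (adjusted p = 0.0036, held under all 18 alternatives). The ubiquitin-conjugating enzyme Ube2g2 fell by 1.17 ± 0.16 (adjusted p = 0.0089), lost without either miR-365a array (adjusted p up to 0.062).

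Erlin2, a scaffold of ERAD substrates, was called in opposite directions. Its levels were 0.41 and 0.49 on NC and 1.09 and 1.11 on miR-193b arrays, a rise of 0.65 ± 0.10 (adjusted p = 0.039), and 0.38 and 0.43 on NC and -0.29 and -0.32 on miR-365a arrays, a fall by 0.71 ± 0.10 (adjusted p = 0.010). The contrast was called (-1.35 ± 0.15, adjusted p = 0.014). The miR-193b call was lost without any one of the 8 arrays (adjusted p up to 0.15), the miR-365a call without either miR-365a array or NC replicate 3 (adjusted p up to 0.071), and that of the contrast without miR-193b replicate 1 or any one array of the 0.6 set (adjusted p up to 0.069).

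Of 21 other stress transducers and PERK branch genes tested, 4 were called higher, 2 lower and 15 not called after miR-365a (all genes: 7.77% higher, 7.99% lower). Chac1, Creb3, Creb3l4 and Casp12 were called higher, and Mbtps2 and Atf4 lower. Atf4 ranged from -0.60 to -0.53 when arrays were left out, and its call was lost in 9 of 18 alternatives. Casp12 was not well above background on all 8 arrays, and the filter admits a gene detected in 1 group alone. Its call is therefore not read as a rise here. The Casp12 difference ranged from 1.44 to 3.43 when arrays were left out, and the call was lost in 11 of 17 alternatives. Chac1, a glutathione-degrading target of the PERK branch, rose by 0.81 ± 0.13 (adjusted p = 0.013), Creb3, a transcription factor anchored in the membrane, rose by 0.92 ± 0.20 (adjusted p = 0.028), and Mbtps2, the protease that releases ATF6, fell by 0.80 ± 0.15 (adjusted p = 0.018). All 3 calls were lost without miR-365a replicate 2 or NC replicate 3, those of Creb3 and Mbtps2 also without miR-365a replicate 1, and that of Mbtps2 also without NC replicate 4 (adjusted p up to 0.078, 0.13 and 0.11). Of 13 genes of the COPII coat, which carries cargo to the Golgi, limma called none after either microRNA, with 2 at an unadjusted p under 0.05 after miR-365a (all genes: 31.2%) and 3 after miR-193b (all genes: 21.3%). With normexp or the deposited values, 1 of the 13 was called higher after miR-365a. Apart from Uggt1 and Erlin2, none of the listed genes was called after miR-193b.

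**Figure D4:**
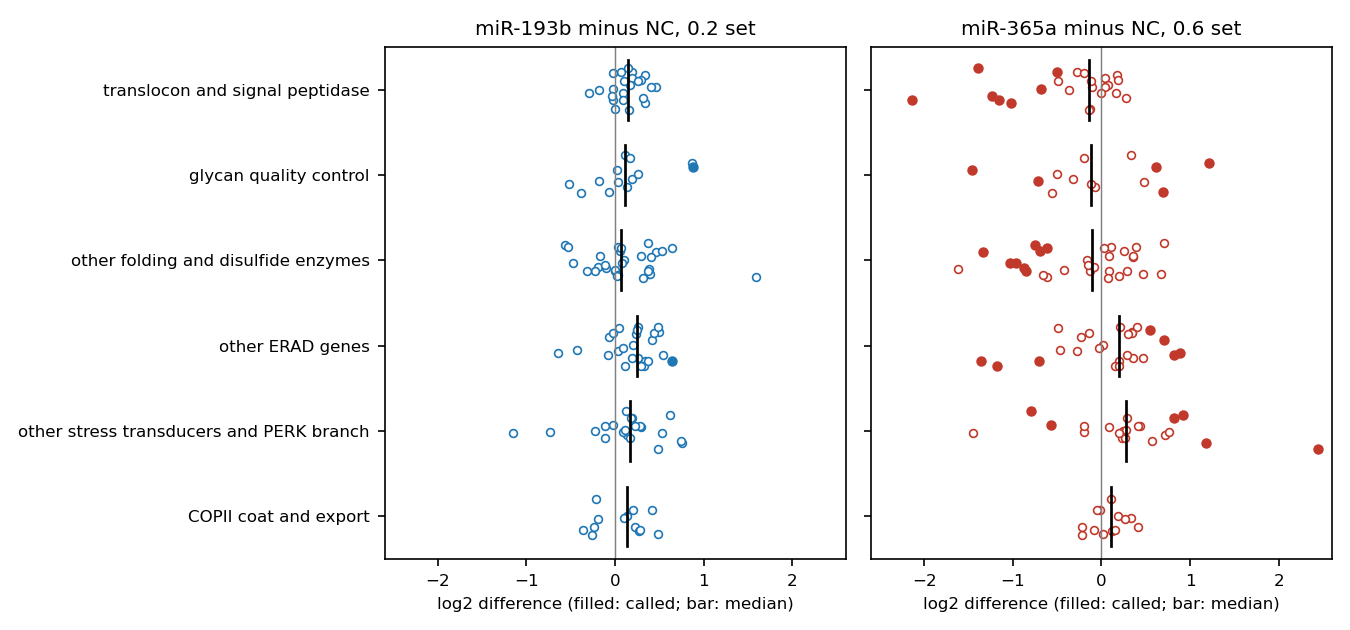
Log2 differences of the tested genes of 6 further endoplasmic reticulum lists after miR-193b (left, blue) and miR-365a (right, red), with filled points for adjusted p under 0.05 and a bar at each list's median; the vertical spread within a list has no meaning. On the right, the 7 called genes of the translocon and signal peptidase list and the 8 called among other folding and disulfide enzymes all lie below 0, and the COPII list has no filled point in either panel.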

How the data were processed

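The scanner files hold spot intensity in arbitrary units, the processed signal that, per the file headers, Feature Extraction 10.7.3.1 of Agilent made by subtracting background within each array, with no scaling between arrays. The authors also deposited log2 values for the same 8 arrays, with medians of 7.04 to 7.05 and r of 0.965 to 0.981 across spots with their own array. They were used as an alternative, and the background correction behind them is not given in the sources used here, though the submitters' processing notes name limma.

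Control and outlier-flagged spots were dropped. From every log2 signal the 75th percentile of its array's gene spots was subtracted, and a probe's spots were averaged. Of 39429 probes, 27502 took their name by accession, 3549 by symbol, 404 by synonym, and 7974 kept the file's name, which gave 30139 names. The brightest of a gene's probes represented it. A gene was tested if both arrays of at least 1 of the 4 pairs that share transfection and amount flagged its probe as well above background, which left 17856 genes. Limma 3.58.1 in R 4.3.3 (lmFit, eBayes) was fitted to all 8 arrays with terms for amount, miR-193b and miR-365a, leaving 4 residual degrees of freedom with 2.31 added by the prior. The Benjamini-Hochberg adjustment ran over all genes tested, with calls under 0.05. Errors are standard errors of the fit. The fitting step was tested on simulated data.

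The 40 genes and the further lists were chosen with earlier results of these data known. Values on every array are given for Hspa5, Hsp90b1, Sel1l, Atf6, Ern1, Xbp1, Eif2ak3 and every called member. Of each further list, up to 3 called genes with the smallest p are given with their differences and errors. The other called genes are named only for the lists of other ERAD genes and other stress transducers. Single probes were adjusted over all probes tested. Positions of probes were taken from the deposited files, on mm9; the part of the transcript they lie in was not annotated here. Promoter and microRNA sequences are RefSeq's on GRCm38.p6, and motifs were searched on both strands. Tables and plots were made in Python 3.11.15 (pandas 2.3.3, matplotlib 3.10.9).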

Additional observations from a re-analysis of the deposited data

Results flagged for a closer look

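Among the 4 NC arrays, which span both amounts, 1 array stood apart from the other 3 by Dixon's criterion for 4 of the 40 genes. For independent values of 1 population the criterion flags about 1 in 20. These arrays come from 2 sets and the genes share them, so that rate cannot tell how many to expect here. NC replicate 4 was high for Erp44 at -0.46 (the others lay between -0.98 and -0.91) and for Syvn1 at 4.29 (3.74 to 3.80). NC replicate 1 was low for Derl2 at 3.24 (3.56 to 3.59) and for Sec61b at 5.72 (5.99 to 6.02). Erp44 after miR-365a was still called without NC replicate 4, with a difference of -2.07.

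The effects of the microRNAs on Erp44 differed by -2.49 in the contrast between them, which cannot be told apart from a difference between the sets. Without NC replicate 4 this contrast was -2.24 and was not called (adjusted p = 0.061).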

How the results depend on the processing

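Erp44 and Sel1l after miR-365a were called under all 18 alternatives run (adjusted p up to 0.030 and 0.036). Of the other calls after miR-365a, Pdia6 was lost in 2 of 18, Creld2 in 4, Atf6 in 5, Creld1 in 7, and Canx, Sdf2l1, Edem3 and Os9 in 9 each, with no change of direction. The call of Sel1l after miR-193b was lost in 7 of 18 and that of Erp44 between the microRNAs in 6 of 17. For miR-365a, the fit of the same-amount arrays and that with slide as a block are the same test, so the 18 count it more than once. For miR-193b, the block fit rests on NC replicate 1 and miR-193b replicate 1 alone.

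Called members after miR-193b numbered 4 with normexp or with trended robust variance, 3 with the deposited log2 values, and 0 with no filter on dim probes, with only the arrays of the same amount, or with slide as a block. All genes called in these settings numbered 980, 1042, 856, 11, 0 and 171, in that order, against 519 in the main fit. After miR-365a, against 4 higher and 6 lower, called members were 1 and 2 with no filter (3 in all), 2 and 4 with the same-amount arrays or slide as a block (6 in all), 4 and 9 with normexp or the deposited values, 5 and 9 with probes above background on all 8 arrays and 5 and 10 with trended variance. All genes called numbered 1057 with no filter, 2318 with the same-amount arrays or slide block, 3311 with normexp and 3378 with the deposited values. They numbered 3417 with all-array detection and 3529 with trended variance, against 2814 in the main fit. Between the microRNAs called members numbered 3 with normexp, the deposited values, probes above background on all 8 arrays, or trended variance, the further ones being Pdia6 and Edem3, and 0 with no filter or slide as a block. All genes called there numbered 1048, 990, 1063, 1129, 0 and 133, in that order, against 623 in the main fit. Between the NC arrays of the amounts called members numbered 2 with normexp, quantile normalization or the mean over probes, 4 with the deposited values and 0 with no filter. All genes called there numbered 2693, 2474, 2352, 2992 and 1027, in that order, against 2772 in the main fit. Called genes of the further lists numbered 4 with normexp, 6 with all-array detection or trended variance and 0 with no filter, same-amount arrays or slide block after miR-193b, 16 with no filter after miR-365a, and 0 with no filter or slide block between the microRNAs. The counts over all genes are those above, with 871 after miR-193b for all-array detection. Removing the filter raised the genes tested to 30139, and the fits on fewer arrays left fewer degrees of freedom.

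Leaving out each array in turn gave 0 to 1 called members after miR-193b, 2 to 10 after miR-365a, 0 to 1 between the microRNAs and 0 to 1 between the NC arrays. For the further lists it gave 0 to 2, 8 to 32 and 0 to 11. Over all genes tested it gave 29 to 281 calls after miR-193b and 588 to 2831 after miR-365a. Between the microRNAs it gave 0 to 556, and between the NC arrays 485 to 2401. The median contrast of the members ran from -0.31 to -0.0091, the latter without NC replicate 4.

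Some uncalled values changed sign. After miR-193b, Hspa5, Pdia6 and Ern1 were -0.15, -0.11 and -0.0030 with quantile normalization and -0.20, -0.11 and -0.048 with the deposited values. Pdia6 and Ern1 were -0.082 and -0.44 with the mean over probes, and Hsp90b1 and Creld1 0.022 and -0.042 with slide as a block. Ern1 after miR-365a was -0.016 with the mean over probes, and the Hsp90b1 contrast was 0.0036 with the deposited values. Leaving out arrays, the miR-193b values ran from -0.15 to 0.20 for Hspa5, -0.35 to 0.050 for Hsp90b1, -0.16 to 0.051 for Sdf2l1, -0.076 to 0.21 for Pdia6, -0.33 to 0.24 for Atf6 and -0.063 to 0.13 for Ern1. Hspa5 ran from -0.60 to 0.11 after miR-365a and from -0.63 to 0.083 in the contrast, and Sel1l from -0.020 to 0.13 in the contrast. The cause was not tested.

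No paired analysis was possible because the labels give the arrays no replicate numbers, and those used here only follow the order of the samples. With 2 arrays a group, changes of the size seen for most members were not set apart from the spread.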
